A study of Rattus norvegicus with 6 samples.

Results

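The genes described here encode 48 nuclear subunits of the mitochondrial respiratory chain and of ATP synthase, measured in rat renal cortex. They were listed by name: 21 subunits of complex I, 4 of complex II, 6 of complex III, cytochrome c, 10 of complex IV and 6 of ATP synthase. A gene was measured where the RefSeq accession of a probe belonged to it. Of the 48, 45 had such a probe, and Ndufa8, Ndufs6 and Cyc1 were not analysed here. The 45 were carried by 75 probes, 23 genes by 1 probe and 22 by several, and each gene was read from its brightest probe. All 45 were well above background on all 6 arrays and none was saturated, so all 45 were tested, among 11748 genes in all.

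The respiratory chain passes electrons from NADH (complex I) and succinate (complex II) through ubiquinone, complex III and cytochrome c to oxygen at complex IV. Complexes I, III and IV pump protons across the inner mitochondrial membrane, and ATP synthase uses their return to make ATP. Most subunits are encoded in the nucleus and a few in mitochondrial DNA. The tubules of the renal cortex are rich in mitochondria, because the reabsorption of filtered salt and solutes runs on ATP.

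Both groups were male Sprague-Dawley rats, Crl:CD(SD), that were 5 weeks old when bought. One group of 3 was given corn oil and the other group of 3 was given 2-amino-4-nitrophenol (a component of oxidative hair dyes), dosed with 750 mg/kg/day; both treatments lasted 4 weeks. RNA from each animal was hybridised to its own 1-colour oligonucleotide array, and the replicates are biological ones by the design text. The comparison asks how the compound altered gene expression in the renal cortex.

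Signals are given as log2 values relative to the 75th percentile of the array, and a change is the treated mean minus the corn oil mean on that scale, with the standard error (SE) of limma. Unscaled, the corn oil arrays had 75th percentiles of 743 to 852 and the treated arrays 564 to 685. The corn oil arrays had 68.1% to 70.9% of probes well above background, against 61.6% to 66.3% for treated ones, with treated array 2 lowest. All 11 markers of the proximal tubule, the main cell type of the cortex, passed the filter. Their linear signals summed to 1550 to 1714 times the 75th percentile in the corn oil rats and to 1694 to 1769 times in the treated rats. These sums depended on the scaling. With quantile normalization, described below, they were 1686 to 1900 times in the corn oil rats and lower, 1507 to 1636 times, in the treated rats. In such bulk tissue, fewer cells of a type and less RNA per cell cannot be told apart. With 3 arrays in each group, the number of arrays limits the precision of every value.

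Transcripts of the subunits were measured slightly higher in the treated rats, by a median of 1.27-fold with the 75th percentile scaling, and no subunit passed the adjusted threshold of 0.05. All 45 changes were above 0 with that scaling, and 38 were after quantile normalization. With the 75th percentile scaling they ran from 0.03 for Atp5f1b, the catalytic beta subunit of ATP synthase, to 0.56 for Ndufa5, an accessory subunit of complex I. The median change of the subunits was 0.35, against 0.04 over all genes tested. By limma, 33 of the 45 (73.3%) were higher at an unadjusted p under 0.05, where 14.3% of all genes were, and 0 were lower, where 7.29% of all genes were. After Benjamini-Hochberg adjustment over all genes the count was 0, where 0.0255% of all genes passed (3 genes), and the lowest adjusted p of a subunit was 0.122 (Atp5pb). With arrays weighted by their estimated quality, 30 subunits passed, where 17.1% of all genes did. On 36 of the 45 (80%), all treated arrays lay above all corn oil arrays, where 20.1% of all genes did. Left out one at a time, each array kept the median change above 0, and the count of 33 moved to between 11 (without corn oil array 2, where 9.33% of all genes were higher) and 39 (without treated array 1, where 20.1% were). It was 13 without corn oil array 1 and 20 without corn oil array 3, beside 9.5% and 8.32% of all genes. Without treated array 2 it was 21, beside 12.1%, and without treated array 3 it was 15, beside 8.68%.

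The 3 treated arrays differed widely, in an order that other genes shared. With each gene's corn oil mean set to 0, the median subunit stood at 0.14 on treated array 1, 0.55 on treated array 2 and 0.35 on treated array 3, against -0.02 to 0.03 on the corn oil arrays. Treated array 2 was the highest of the 6 arrays for 42 subunits and treated array 3 for the other 3. All 45 subunits exceeded the highest corn oil array on treated array 2, 43 did on treated array 3 and 36 on treated array 1. On treated arrays 1, 2 and 3, the median of the brightest 10% of genes without the subunits was 0.12, 0.33 and 0.24. The median of all genes was 0.02, 0.09 and 0.05. The 75th percentiles of unscaled signal had the opposite order, 685, 564 and 627, and the part of overall signal in the result was not tested. Corn oil array 2 lay alone on its slide, while the other 5 arrays shared a slide, with both corn oil arrays in its first row and the treated arrays in its second. With slide as a block 11 subunits were higher at an unadjusted p under 0.05, where 9.57% of all genes were, with a median change of 0.33. As corn oil array 2 is alone on its slide, this block in effect leaves it out. The shared slide alone therefore gave the same 11 and 0.33, which is not a second check. Row and group cannot be told apart on the shared slide.

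**Figure D1:**
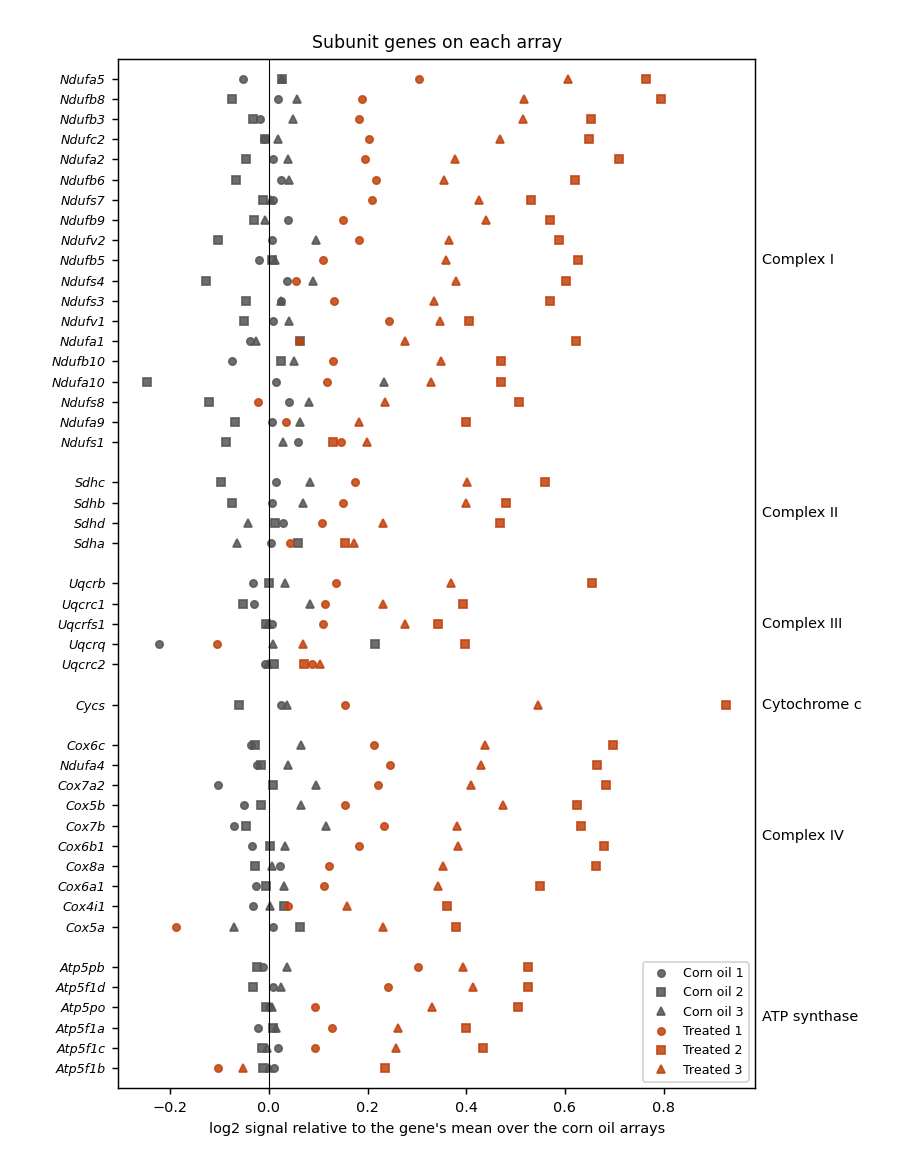
Signal of each of the 45 tested subunit genes on each of the 6 arrays, as log2 relative to the gene's mean over the 3 corn oil arrays (75th percentile scaling), by complex and sorted by change. Treated array 2 is the highest array for 42 genes, and treated array 1 does not exceed the highest corn oil array for 9. For Cox5a and Atp5f1b, treated array 1 lies below every corn oil array. After quantile normalization 7 of the changes are below 0.

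The probes of the subunits were among the brightest, and bright genes as a class had changes above 0 with this scaling. The brightness of different probes is not a measure of relative transcript level. The median subunit lay at a mean log2 signal of 6.28, which is 77.7 times the 75th percentile, and 42 of the 45 were in the brightest 10% of genes. In that 10%, 42.6% of genes were higher at an unadjusted p under 0.05, and 32 of the 42 subunits in it (76.2%) were. All treated arrays lay above all corn oil arrays for 594 of the 1133 genes in that 10% that are not subunits described here. They did for 36 of the 45 subunits, 3 of which lie outside that 10%. With genes split by signal into groups of 10%, the median change ran from -0.12 in the dimmest to 0.23 in the brightest. Over the 45 subunits, the change had a Pearson correlation with mean signal of 0.35 and a Spearman correlation of 0.35, beside a Spearman correlation of 0.33 over all genes, and these points share the same 6 arrays.

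**Figure D2:**
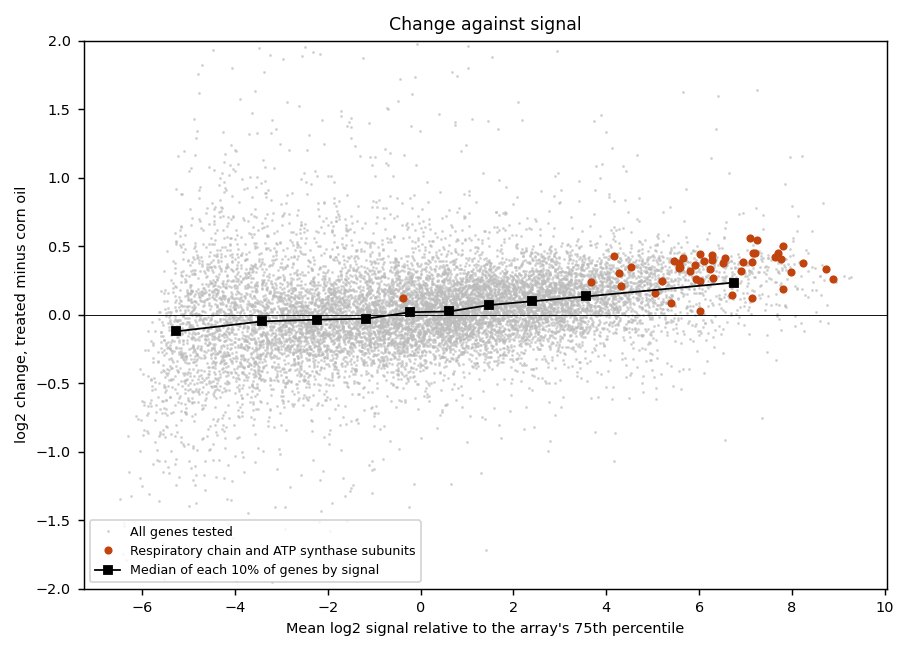
Change (treated minus corn oil, log2) against mean log2 signal for all 11748 genes tested (grey), the 45 subunits (orange) and the median of each 10% of genes by signal (black), with 75th percentile scaling. The vertical axis is limited to -2 to 2. The medians of these groups run from -0.12 to 0.23 and most subunits lie at or above the median of the brightest 10%; with quantile normalization, 7 subunits lie below 0.

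Quantile normalization gives every array the same distribution of signals, and the difference was smaller on this scale. The median change of the subunits became 0.10, with 38 above 0 and 7 below, beside 0.00 over the brightest 10%. One subunit, Ndufa5, was higher at an unadjusted p under 0.05 (2.22% of the 45, where 8.23% of all genes were). Sdha and Atp5f1b were lower (4.44%, where 9.53% of all genes were). Cyclic loess normalization gave a median of 0.10, with Ndufa5 and Atp5f1d higher (4.44%, where 9.61% of all genes were) and Atp5f1b lower (2.22%, where 8.34% of all genes were). Under quantile normalization the subunits' median on single treated arrays was -0.01, 0.19 and 0.09, so treated array 1 lay within the range of the corn oil arrays, -0.03 to 0.03. Scaling on 7 spike-in probes moved the median of all genes to -0.28 and that of the subunits to 0.03. Like the 75th percentile scaling, it shifts all genes of an array by the same amount. The subunits' distance from the median of all genes (0.30) was therefore bound to be the same with both and is not a check. The medians of complexes II, III and ATP synthase were below 0 with spike-in scaling.

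**Figure D3:**
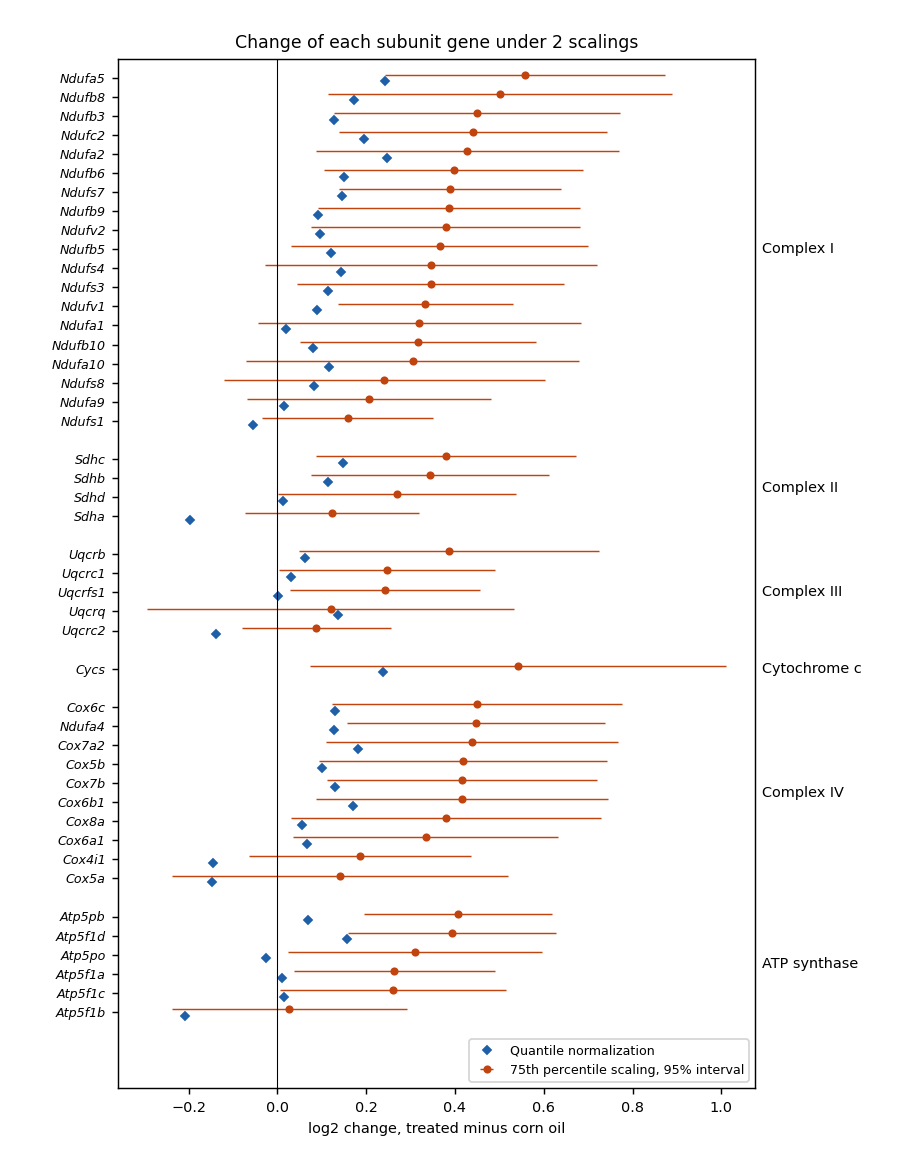
Change of each of the 45 subunit genes (treated minus corn oil, log2) with 75th percentile scaling (orange, with the 95% interval of limma, 3 arrays a group) and with quantile normalization (blue). All orange points lie above 0, while the blue points of Ndufs1, Sdha, Uqcrc2, Cox4i1, Cox5a, Atp5po and Atp5f1b lie below 0.

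Complex I, which oxidises NADH, had 19 tested subunits with a median change of 0.37 (0.12 with quantile normalization). Of these, 13 were higher at an unadjusted p under 0.05 and 14 had all treated arrays above all corn oil arrays. Over all genes the shares by these rules were 14.3% and 20.1%, which also stand beside the counts of the modules and complexes below. Ndufa5, an accessory subunit of the ubiquinone-reducing Q module, had the largest change. Its signal was 6.77, 6.85 and 6.84 on the corn oil arrays and 7.12, 7.58 and 7.42 on the treated arrays. All treated arrays lay above the corn oil arrays, by 0.56 ± 0.13 (SE), and limma gave an adjusted p of 0.13; after quantile normalization the change was 0.24 with an unadjusted p of 0.023. Ndufb8, a membrane-arm subunit with the brightest probe of the complex, read 7.57, 7.48 and 7.61 on the corn oil arrays and 7.74, 8.35 and 8.07 on the treated arrays. Those groups did not overlap either, and the change of Ndufb8 was 0.50 ± 0.16 (0.17 after quantile normalization). The smallest change was in Ndufs1, the large iron-sulfur subunit of the NADH-oxidising N module. It read 5.04, 4.89 and 5.01 on the corn oil arrays and 5.12, 5.11 and 5.18 on the treated arrays. The treated arrays of Ndufs1 were all above the corn oil arrays, but close to each other and only 0.16 ± 0.08 higher, while its other probe gave -0.03 and quantile normalization of the first probe -0.05.

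Within complex I the 3 modules had similar medians. The N module, with 5 tested subunits, had a median change of 0.35 with 3 at an unadjusted p under 0.05. Ndufv1, which carries FMN and the NADH site, had a change of 0.33 ± 0.08. The corresponding values were 0.38 ± 0.13 for the iron-sulfur subunit Ndufv2, 0.43 ± 0.14 for Ndufa2 and 0.35 ± 0.15 for the accessory subunit Ndufs4, whose arrays overlapped. The Q module, also with 5, had a median of 0.35 with 3 at that level. Among its iron-sulfur subunits, Ndufs7 differed by 0.39 ± 0.10 without overlap and Ndufs8 by 0.24 ± 0.15 with overlap. Ndufs3, a core subunit, differed by 0.35 ± 0.12, and Ndufa9, an accessory subunit near the ubiquinone site, by 0.21 ± 0.11 with overlap. Of the 9 tested subunits of the proton-pumping P module, 7 were at that level, and the median was 0.39. They ran from 0.31 for Ndufa10 to 0.50 for Ndufb8, and Ndufa10 and Ndufa1 were the 2 whose arrays overlapped. The SD of change over the 45 subunits of all complexes was 0.12, and the median SE of a single subunit was 0.12. That SE includes differences between arrays that the subunits share. It does not measure the precision of a difference between subunits or modules.

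Complex II, succinate dehydrogenase, is the one complex encoded wholly in the nucleus, and all 4 subunits were measured. Sdha, the flavoprotein that oxidises succinate, read 7.09, 7.14 and 7.02 on the corn oil arrays and 7.13, 7.24 and 7.26 on the treated arrays. Its groups overlapped, and the change of 0.12 ± 0.08 became -0.20 with quantile normalization. Sdhb, which holds the iron-sulfur clusters, read 5.40, 5.32 and 5.46 on the corn oil arrays and 5.54, 5.87 and 5.79 on the treated arrays. Sdhc, a membrane anchor that binds ubiquinone and heme, read 5.39, 5.28 and 5.46 against 5.55, 5.94 and 5.78. Sdhd, the other anchor, read 6.20, 6.18 and 6.12 against 6.27, 6.63 and 6.40. In these 3 subunits every treated array lay above every corn oil array. The changes were 0.34 ± 0.11 for Sdhb, 0.38 ± 0.12 for Sdhc and 0.27 ± 0.11 for Sdhd, with adjusted p of 0.169, 0.169 and 0.23 by limma. With quantile normalization they were 0.11, 0.15 and 0.01.

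Complex III takes electrons from ubiquinone to cytochrome c, and its 5 tested subunits had a median change of 0.24 (0.03 with quantile normalization). Of the 5, 3 were higher at an unadjusted p under 0.05. Uqcrb, a small subunit that takes part in ubiquinone binding with the brightest probe of the complex, read 6.92, 6.96 and 6.99 on the corn oil arrays and 7.09, 7.61 and 7.32 on the treated arrays. No treated array fell within the corn oil range, and the change was 0.39 ± 0.14 (0.06 with quantile normalization). Uqcrc2, a core protein, read 5.35, 5.37 and 5.36 against 5.45, 5.43 and 5.46. Both groups of Uqcrc2 were tight and did not overlap, yet the change of 0.09 ± 0.07 turned to -0.14 with quantile normalization. Uqcrc1, the other core protein, differed by 0.25 ± 0.10 and Uqcrfs1, the Rieske iron-sulfur protein, by 0.24 ± 0.09. Uqcrq, a small subunit, was the dimmest, with a mean signal of -0.38, and its arrays overlapped (0.12 ± 0.17). Cycs, the mobile carrier cytochrome c, read 7.0, 6.91 and 7.01 on the corn oil arrays and 7.13, 7.90 and 7.52 on the treated arrays. Treated array 2 stood out and all treated arrays were above the corn oil arrays, with a change of 0.54 ± 0.19 and an adjusted p of 0.191 by limma (0.24 with quantile normalization). Cycs has 7 named pseudogenes in the RefSeq gene table, and 26 of the 48 genes have a named pseudogene or a "like" copy; hybridisation of such copies to the probes was not tested.

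Complex IV, cytochrome c oxidase, has a catalytic core encoded in mitochondrial DNA, and the 10 subunits measured here surround it. Their median change was 0.42 (0.11 with quantile normalization), with 8 at an unadjusted p under 0.05 and 9 without overlap. Ndufa4, first assigned to complex I and now placed in complex IV, had the lowest p. It read 6.91, 6.92 and 6.97 on the corn oil arrays and 7.18, 7.60 and 7.37 on the treated arrays. Its arrays did not overlap, and the change was 0.45 ± 0.12 with an adjusted p of 0.143 by limma. Cox6c, a small accessory subunit with the largest change, read 7.44, 7.45 and 7.54 against 7.69, 8.18 and 7.92. Cox6a1, an accessory subunit in its broadly expressed form, with the brightest probe, read 8.55, 8.57 and 8.60 against 8.68, 9.12 and 8.91. Both had every treated array above every corn oil array, with changes of 0.45 ± 0.13 and 0.33 ± 0.12 (0.13 and 0.07 with quantile normalization; cyclic loess turned Cox6a1 to -0.03). Cox5a, a subunit on the matrix side, read 6.66, 6.71 and 6.58 on the corn oil arrays and 6.46, 7.03 and 6.88 on the treated arrays. Treated array 1 was the lowest of the 6 for Cox5a, the groups overlapped, and the change of 0.14 ± 0.16 turned to -0.15 with quantile normalization. Cox4i1, the broadly expressed form of subunit 4, gave 0.19 ± 0.10 and, with quantile normalization, -0.15. The other subunits (Cox5b, Cox6b1, Cox7a2, Cox7b and Cox8a) had changes from 0.38 to 0.44, all without overlap.

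ATP synthase joins a catalytic head to a membrane rotor through a central and a peripheral stalk, and its 6 tested subunits had a median change of 0.29. This median was 0.01 with quantile normalization and -0.0032 with cyclic loess. Of the 6, 5 were higher at an unadjusted p under 0.05. Atp5pb, subunit b of the peripheral stalk, read 7.55, 7.53 and 7.59 on the corn oil arrays and 7.86, 8.08 and 7.95 on the treated arrays. All treated arrays were above the corn oil arrays, and Atp5pb had the lowest p of the 45, with a change of 0.41 ± 0.09, an unadjusted p of 0.00316 and an adjusted p of 0.122 by limma, and 0.07 with quantile normalization. Atp5f1a, the alpha subunit of the head, with the brightest probe, read 8.73, 8.76 and 8.77 against 8.88, 9.15 and 9.01. Its groups did not overlap, and its change of 0.26 ± 0.09 was 0.01 with quantile normalization and -0.11 with cyclic loess. Atp5f1b, the beta subunit that holds the catalytic sites, read 6.02, 6.0 and 6.01 on the corn oil arrays and 5.91, 6.25 and 5.96 on the treated arrays. For Atp5f1b, 2 treated arrays lay below every corn oil array and 1 above, so the change of 0.03 ± 0.11 had no direction beyond the spread, and it was -0.21 (unadjusted p 0.038) with quantile normalization. The central stalk subunits Atp5f1c and Atp5f1d differed by 0.26 ± 0.10 and 0.39 ± 0.10. Atp5po, which couples the peripheral stalk to the head, differed by 0.31 ± 0.12, or -0.03 with quantile normalization.

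Other probes of the same genes mostly had changes above 0 with the 75th percentile scaling, but some were much smaller than that of the probe used. Of 30 further probes, 29 were well above background on all 6 arrays, and 28 of those had a change above 0. Their median was 0.32 and their range -0.03 to 0.48, the one below 0 being that of Ndufs1. The further probe gave 0.02 for Atp5f1a, where the probe used gave 0.26. It gave 0.13 against 0.39 for Ndufs7 and 0.01 against 0.12 for Sdha. The further probes of Ndufb10 gave more than the probe used, 0.37 and 0.34 against 0.32.

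Promoters of respiratory chain genes are known targets of NRF-1 and of the ETS factor GABPA, so the sequences around the gene starts were searched for their core letters. RefSeq (GRCr8) gave 250 bases before to 50 after the gene start for 42 of the 48 genes. The NRF-1 core GCATGCGC, on either strand, was in 4 of the 42 (9.52%: Atp5po, Cycs, Sdhb and Uqcrc1), in 2.47% of all 33469 promoters and in 4.4% of 9597 promoters of genes tested. In Atp5po this core occurs on both strands, in 2 matches that overlap. The ETS core CCGGAAG, on either strand, was in 13 of the 42 (31%), in 8.75% of all promoters and in 16.1% of those of tested genes. The median change was 0.33 in the 4 genes with the NRF-1 core and 0.35 in the others, and 0.27 in the 13 with the ETS core and 0.37 in the others. Shown here, 5′ to 3′ along the gene with the matches in capitals, are the promoters of Sdhb, Sdhd and Uqcrc2, the 3 genes given array by array above that hold 2 separate matches. Sdhb lies on the plus strand at chr5:158547684-158547983, with the NRF-1 core at -167 and the ETS core at -108 from the gene's first base. Sdhd lies on the minus strand at chr8:59850592-59850891, with the ETS core, on the other strand, at -48 and at 19 past the first base. Uqcrc2 lies on the plus strand at chr1:184598990-184599289, with the ETS core, on the other strand, at -117 and -28.
Sdhb: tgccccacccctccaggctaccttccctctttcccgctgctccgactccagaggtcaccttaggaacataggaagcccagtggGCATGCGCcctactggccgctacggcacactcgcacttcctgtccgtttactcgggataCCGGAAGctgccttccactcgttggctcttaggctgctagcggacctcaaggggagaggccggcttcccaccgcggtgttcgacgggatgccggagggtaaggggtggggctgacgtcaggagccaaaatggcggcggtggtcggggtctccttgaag
Sdhd: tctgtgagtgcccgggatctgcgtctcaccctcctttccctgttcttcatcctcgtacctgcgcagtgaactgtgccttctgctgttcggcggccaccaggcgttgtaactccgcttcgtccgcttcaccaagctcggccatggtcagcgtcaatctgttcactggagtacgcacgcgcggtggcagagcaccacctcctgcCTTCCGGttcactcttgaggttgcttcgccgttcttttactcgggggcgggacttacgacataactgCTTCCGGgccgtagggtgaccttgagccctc
Uqcrc2: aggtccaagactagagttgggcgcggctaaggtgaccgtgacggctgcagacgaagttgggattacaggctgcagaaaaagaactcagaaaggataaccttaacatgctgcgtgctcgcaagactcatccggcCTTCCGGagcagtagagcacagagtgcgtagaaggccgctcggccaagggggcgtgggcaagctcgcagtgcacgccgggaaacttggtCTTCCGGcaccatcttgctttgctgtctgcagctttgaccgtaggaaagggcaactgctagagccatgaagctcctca
The changes of these 3 genes were 0.34, 0.27 and 0.09 with the 75th percentile scaling, and a match of letters does not show that a factor bound.

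Other genes of the same organelle were read in the same fit. Of 37 further nuclear subunits of the chain and ATP synthase, 30 were tested, 26 were higher at an unadjusted p under 0.05 and 0 lower, with a median change of 0.42 (0.13 with quantile normalization, 5 higher and 0 lower). Atp5if1, the inhibitor of ATP synthase, read 6.20, 6.28 and 6.25 on the corn oil arrays and 6.81, 6.94 and 7.01 on the treated arrays. Its treated arrays were close to each other and clear of the corn oil arrays, at 0.68 ± 0.09 (adjusted p 0.0799 by limma), and 0.40 with quantile normalization. Cox8b, a form of subunit 8 known mainly from muscle and brown fat, differed by 1.16 ± 0.17 (1.19 with quantile normalization), without overlap. Its probe was dim, with means of -1.88 in the corn oil and -0.73 in the treated rats, where the median signal of this list was 6.56. Subunits encoded in mitochondrial DNA were not analysed here.

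Assembly factors, which build the complexes without being part of them, had 38 of 48 tested, 20 higher at an unadjusted p under 0.05 and 0 lower. Their median change was 0.28, and after quantile normalization it was 0.18, with 12 higher and 0 lower. Coa8, needed for complex IV, read 4.03, 4.15 and 4.08 on the corn oil arrays and 4.73, 4.78 and 5.01 on the treated arrays. That difference of 0.75 ± 0.10 (0.56 with quantile normalization) separated all arrays, as did that of Cox20, a chaperone of complex IV, at 0.54 ± 0.10 (0.34). Mitochondrial ribosomal proteins, which translate the subunits encoded in mitochondrial DNA, gave 39 of 66 higher and 0 lower, with a median of 0.30 (0.16, with 15 higher and 0 lower, after quantile normalization). Mrpl51 and Mrpl35 had the lowest p of that list, with 0.55 ± 0.07 and 0.46 ± 0.09.

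Cytosolic ribosomal proteins, which lie outside the organelle, gave 55 of 74 higher and 0 lower, with a median of 0.35. With quantile normalization the median was 0.06, with 2 higher and 0 lower. Rpsa and Rps24 differed by 0.47 ± 0.11 and 0.55 ± 0.13 (0.23 and 0.30 with quantile normalization). Enzymes of the citric acid cycle gave 5 of 17 higher and 0 lower with a median of 0.16 (-0.04 with quantile normalization, 1 higher and 1 lower). Cs, citrate synthase, differed by 0.39 ± 0.08 and Pdha1, a subunit of pyruvate dehydrogenase, by 0.23 ± 0.07, which with quantile normalization became 0.24 and -0.01. Of 9 carriers, porins and uncoupling proteins, 5 were higher and 0 lower, with a median of 0.22 (0.06 with quantile normalization, 1 higher and 0 lower). The lowest p by limma were those of Vdac1, a pore of the outer membrane (0.45 ± 0.08), and Slc25a3, the phosphate carrier (0.39 ± 0.09). With quantile normalization these changes were 0.13 and 0.07, and the 1 gene higher was Ckmt1, at 0.30.

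Regulators of mitochondrial genes and of mitochondrial DNA upkeep gave changes on both sides of 0. Of 20 listed, 19 were tested. At an unadjusted p under 0.05 there were 3 higher and 1 lower, near the shares of all genes (14.3% and 7.29%). The median of the regulators was -0.05 (-0.11 with quantile normalization, 2 higher and 3 lower, beside 8.23% and 9.53% of all genes). Ppargc1b, a coactivator of respiratory chain genes, read 0.57, 0.84 and 0.75 on the corn oil arrays and 0.29, -0.04 and 0.27 on the treated arrays. Every treated array of Ppargc1b lay below every corn oil array, by a change of -0.55 ± 0.13 (-0.57 with quantile normalization), with an adjusted p of 0.127 by limma. Polg2, the accessory subunit of the mitochondrial DNA polymerase, lay the other way at 0.42 ± 0.09 (0.30).

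**Figure D4:**
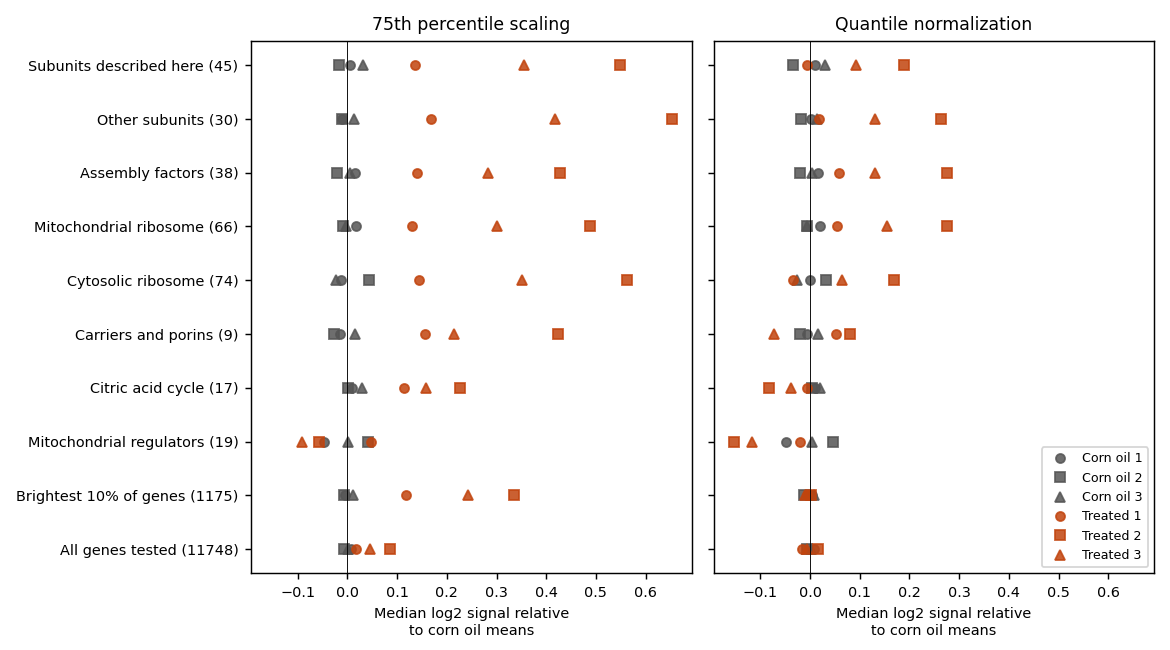
Median log2 signal of each gene list on each array, after subtracting the corn oil mean of every gene, with 75th percentile scaling (left) and quantile normalization (right); the number of genes tested is in parentheses. With 75th percentile scaling the subunits lie at 0.14, 0.55 and 0.35 on the 3 treated arrays, near the cytosolic ribosomal proteins, and with quantile normalization at -0.01, 0.19 and 0.09.

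Markers of cell types that differ in their content of mitochondria were read beside these results. The shares of all genes beside their counts are 14.3% higher and 7.29% lower, and 8.23% and 9.53% with quantile normalization. At an unadjusted p under 0.05, 1 of the 11 proximal tubule markers was higher and 3 were lower, with a median change of -0.02, and after quantile normalization 0 were higher and 7 lower, with a median of -0.28. The 6 markers of the S3 segment of that tubule had a median of 0.37 (0.25 with quantile normalization), with 3 higher at that level and 0 lower. Their signals summed to 212 to 236 times the 75th percentile in the corn oil rats, against 278 to 341 times in the treated rats. That sum is mostly Slc3a1 (corn oil mean 7.62 on the log2 scale), whose change was 0.42 and 0.07 with quantile normalization, and the summed ranges then overlapped, at 237 to 266 against 252 to 302 times. For the thick ascending limb, another segment rich in mitochondria, 5 markers had a median of 0.35 (0.17 with quantile normalization). Only Umod of these was higher at that level, 4 had overlapping arrays, and Kcnj1 and Cldn14 had changes of -0.16 and -0.01. Their sum of 269 to 295 against 352 to 452 times is mostly Umod (corn oil mean 8.12). With quantile normalization the summed ranges came close without overlap, at 301.8 to 333.8 against 334.1 to 406.1 times. With cyclic loess they overlapped, at 302 to 335 against 296 to 396 times. By contrast, 4 distal convoluted or connecting tubule markers had a median of -0.45 (-0.58 with quantile normalization), with sums of 22.7 to 29.2 against 16.5 to 20.4 times. The 6 collecting duct principal cell markers had a median of -0.30 (-0.44), with sums of 201 to 217 against 163 to 217 times. With quantile normalization the collecting duct sums did not overlap, at 220 to 236 against 150 to 217 times. Red cell markers, such as the globins, had a median of 1.16 over 6 genes (0.86), with sums of 433 to 665 against 827 to 1490 times. With quantile normalization the red cell sums overlapped, at 479 to 755 against 693 to 1475 times. On single treated arrays the red cell median was 1.57, 0.59 and 1.29 with the 75th percentile scaling, lowest on treated array 2, where the subunits were highest. Every marker counted had passed the background filter in 1 group or both, and the part of these cell types in the subunit values was not tested.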

How the data were processed

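Total RNA of renal cortex was labelled with Cy3 and hybridised to 6 single-colour arrays, 3 per group, per the labels. Per the file headers, the deposited intensity of each spot is the processed signal of Agilent Feature Extraction 10.7.1.1 (the submitters' processing notes name version 10.7), background-subtracted on a linear scale, with flags for outliers, saturation and signal above background. The authors' value table holds each intensity as a ratio to the 75th percentile of its array. That scale was found by comparison with the scanner values over 36961 probes. Its columns fitted the scanner values of the same group but of a differently numbered replicate, and replicate numbers here follow the scanner files.

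From the scanner values, log2 of the processed signal minus the 75th percentile over 61657 non-control probes was taken. The 64 probes flagged as outliers were left out. The filter kept 40894 probes, those above background by the scanner's flag in all 3 animals of 1 group or both. Probe accessions were looked up in the RefSeq gene table of GRCr8 to name genes (27460 probes, 15284 genes), and 11748 genes were tested by their brightest probe. The test was limma's (version 3.58.1, lmFit then eBayes, R 4.3.3) with no block, with Benjamini-Hochberg adjustment across the 11748 genes and a threshold of 0.05. This script was tested on simulated data. Its p-values are two-sided, and the standard errors given are its moderated ones. The array values given for named subunits are for the member of each complex with the brightest probe, the largest and smallest change and the lowest p, with cytochrome c and complex II in full, and from each further list the 2 genes with the lowest p. The medians of gene lists, the promoters and the summed marker signals are descriptions without a test. The members and gene lists were chosen with earlier results of these data known. The alternatives were other scalings (median, quantile, cyclic loess, spike-in probes, the authors' table), normexp (offset 50) on median signals, other filters, the mean over probes, replicate and slide blocks, an eBayes trend, array weights and leaving out each array.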

Additional observations from a re-analysis of the deposited data

How the results depend on the processing

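The size of the difference depended on the scaling. The count of 33 subunits higher at an unadjusted p under 0.05 became 1 with quantile normalization, 2 with cyclic loess and 0 with spike-in scaling, and 11 with slide as a block. With spike-in scaling 1.02% of all genes were higher and 20.9% lower. The count of 0 lower became 2 with quantile normalization and 1 with cyclic loess. After adjustment 0 passed in the main setting and 30 with array weights, where 2010 of all genes passed. By setting, the quantile, loess and spike-in medians over the subunits were 0.0970, 0.0994 and 0.0263. Minus the median of all genes, the quantile and loess values were 0.101 and 0.0855. In the same order of quantile, loess and spike-in, the medians were 0.117, 0.121 and 0.0459 for complex I, 0.0622, 0.0618 and -0.0128 for complex II, 0.0296, 0.0332 and -0.0766 for complex III, 0.115, 0.114 and 0.0962 for complex IV, and 0.0132, -0.0032 and -0.0330 for ATP synthase. Median scaling, the authors' table, both other filters, the mean over probes, the trend and normexp (25 subunits higher, beside 17.9% of all genes) kept these medians above 0. The cause of the differences was not tested.

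Single subunits below 0 with quantile normalization were Ndufs1 (-0.0546), Sdha (-0.196), Uqcrc2 (-0.137), Cox4i1 (-0.145), Cox5a (-0.148), Atp5f1b (-0.209) and Atp5po (-0.0256). With cyclic loess they were Ndufs1 (-0.0496), Sdha (-0.174), Uqcrc2 (-0.135), Uqcrfs1 (-0.0060), Cox4i1 (-0.139), Cox5a (-0.137), Cox6a1 (-0.0308), Atp5f1a (-0.108), Atp5f1b (-0.222) and Atp5po (-0.0228). With spike-in scaling they were Ndufa9 (-0.113), Ndufa10 (-0.0144), Ndufb10 (-0.0028), Ndufs1 (-0.161), Ndufs8 (-0.0790), Sdha (-0.196), Sdhd (-0.0500), Uqcrc1 (-0.0729), Uqcrc2 (-0.232), Uqcrfs1 (-0.0766), Uqcrq (-0.200), Cox4i1 (-0.133), Cox5a (-0.178), Atp5f1a (-0.0564), Atp5f1b (-0.293), Atp5f1c (-0.0585) and Atp5po (-0.0095). Array weights gave Atp5f1b -0.0300.

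Leaving out each array in turn gave 11 to 39 subunits higher, 0 lower and 0 after adjustment. The median ran from 0.240 to 0.459 over the subunits and from 0.213 to 0.394 minus that of all genes. It ran from 0.274 to 0.479 for complex I, 0.223 to 0.395 for complex II, 0.173 to 0.309 for complex III, 0.295 to 0.520 for complex IV and 0.204 to 0.382 for ATP synthase. Each lowest median was without treated array 2 and each highest without treated array 1. Uqcrq ranged from -0.0185 to 0.232 and Atp5f1b from -0.0782 to 0.0918. With the replicate block, 25 subunits were higher, beside 11.5% of all genes, and the median stayed at 0.346. Deviations of same-numbered arrays from their group means had correlations of 0.0065, -0.0502 and -0.0320. Such values show no shared deviation by number, and they cannot show whether animals were paired. With 3 arrays a group, signal over background did not limit the subunits, all well above background on every array.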

Other observations

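Within each complex the subunit with the largest and that with the smallest change kept their order on each treated rat. The difference between them, each relative to its corn oil mean, was 0.16, 0.63 and 0.41 on the 3 treated arrays for Ndufa5 over Ndufs1, and 0.41, 0.29 and 0.45 for Atp5pb over Atp5f1b. It was 0.13, 0.41 and 0.23 for Sdhc over Sdha, 0.05, 0.58 and 0.26 for Uqcrb over Uqcrc2, and 0.40, 0.32 and 0.21 for Cox6c over Cox5a. With quantile normalization these differences had means of 0.30, 0.28, 0.34, 0.20 and 0.28 in that order, so they depended less on the scaling than the changes themselves, and 1 of the 15 single values was below 0 (-0.04, Uqcrb over Uqcrc2 on treated array 1). These pairs were picked as the extremes of their complex, which largely sets their order, so the differences are descriptions and no test was made.

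Of the best known regulators of respiratory chain genes, named after their values were seen, Ppargc1a, the coactivator related to Ppargc1b, differed by -0.36 ± 0.15 (-0.33 with quantile normalization). Nrf1, Gabpa and Tfam differed by -0.14 ± 0.10, -0.10 ± 0.11 and 0.20 ± 0.11, with arrays that overlapped in those 3. Esrra, a nuclear receptor that works with these coactivators, differed by 0.23 ± 0.07 (0.02 with quantile normalization). None of these genes passed the adjusted threshold of limma, and Esrra was the only one of them at an unadjusted p under 0.05.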
